A study of Mus musculus with 415 samples.

Results

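H19-Igf2 and Dlk1-Meg3 are pairs of neighbouring imprinted genes, and their chromatin was examined here by single-cell ATAC-seq of mouse embryonic stem cells that had been differentiated with retinoic acid. The members are the rows of the deposited region table that overlap chr7:149740000-149860000, the window drawn around H19 and Igf2, or chr12:110670000-110830000, the window drawn around Dlk1 and Meg3, on build mm9. The windows hold 6 of the 23180 regions, 1 in the H19-Igf2 window and 5 in the Dlk1-Meg3 window. ATAC-seq uses the Tn5 transposase to cut and tag accessible DNA. A cell with signal in a region is called open here, and had at least part of a tagged fragment aligned there.

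Every sample is a single cell of the R1 embryonic stem cell line, and all samples come from 1 condition. Per the labels, embryoid bodies formed over 48 hours in hanging drops, and retinoic acid was then present at 0.5 mM for 4 days. No untreated cells, other time points or separate cultures are named, so the series counts as 1 sample, cells are not replicates, and no p-value was computed. Intervals given below are exact 95% intervals that cover counting error only.

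In an imprinted gene, the copy from 1 parent is expressed and the other is largely silent. H19, a long non-coding RNA, is expressed from the maternal copy, while Igf2, a fetal growth factor, is expressed from the paternal copy. Between them lies a control region that is methylated on the paternal chromosome. On the maternal chromosome it binds the insulator protein CTCF and keeps Igf2 from enhancers that it would otherwise share with H19. Dlk1, a transmembrane protein of the Notch ligand family, is expressed from the paternal copy, and Meg3, a long non-coding RNA, from the maternal copy, under a control region between the genes that is likewise methylated on the paternal chromosome. The table does not separate the parental copies, so open here means open on either of them.

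The table used for gene names is on another build, GRCm38, and positions were not converted. No region was therefore assigned to a promoter, gene body or control region, and regions are numbered by their order in each window. On GRCm38, protein-coding and long non-coding genes follow each other in the order Mrpl23, Nctc1, H19, Gm33148, Igf2, Igf2os and Ins2 on chromosome 7. On chromosome 12 the order is Dlk1, Gm34081, Gm34017, Meg3 and Rtl1. Sequence just upstream of a transcription start is shown for 1 gene of each pair, to show the letters of the DNA around which the windows were drawn. These are the 250 bases before a RefSeq start, on GRCm38.p6, and Meg3 and Igf2 are printed because their first listed start lies at the edge of the annotated gene. The Meg3 sequence is chr12:109540746-109540995 on the plus strand and the Igf2 sequence is chr7:142666817-142667066 on the minus strand, both written 5′ to 3′, and these positions cannot be set against the mm9 positions of the regions. Capitals mark matches on either strand to TGCCGC, the core that the imprint-protecting factor ZFP57 recognises when methylated, to TGACGTCA, the cAMP response element, and to AGGTCA, a half-site of nuclear receptors such as the retinoic acid receptors. No matches overlap.
Meg3: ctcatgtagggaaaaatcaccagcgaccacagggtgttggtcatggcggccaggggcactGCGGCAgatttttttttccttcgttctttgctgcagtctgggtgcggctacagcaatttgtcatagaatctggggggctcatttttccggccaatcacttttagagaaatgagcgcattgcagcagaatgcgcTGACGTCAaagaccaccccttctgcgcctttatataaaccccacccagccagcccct
Igf2: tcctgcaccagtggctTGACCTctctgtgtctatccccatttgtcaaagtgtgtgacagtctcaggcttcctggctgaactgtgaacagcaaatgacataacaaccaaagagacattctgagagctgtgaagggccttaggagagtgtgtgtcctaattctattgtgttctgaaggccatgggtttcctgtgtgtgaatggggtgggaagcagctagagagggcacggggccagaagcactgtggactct

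The Meg3 sequence holds 1 match to TGCCGC, written on this strand as GCGGCA, 1 match to TGACGTCA and none to AGGTCA. It has 10 CpG dinucleotides, against a median of 6 over the 32851 promoters of the table cut to the same length. The Igf2 sequence, from the start that lies farthest upstream of the 4 listed, holds 1 match to AGGTCA, none to the other motifs, and 1 CpG. Over all promoters, 8.68% hold TGCCGC, 1.55% hold TGACGTCA and 14.02% hold AGGTCA. These matches describe the letters and say nothing of binding in these cells.

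Few cells were open at any of the 6 regions, and all 6 shares lay below the median of the whole table. The only region in the H19-Igf2 window (chr7:149796524-149797273) was open in 38 cells, or 9.16% of all (interval 6.56% to 12.4%). In the Dlk1-Meg3 window, region 1 (chr12:110687726-110688469) and region 2 (chr12:110691370-110691972) were each open in 35 cells, or 8.43% (5.94% to 11.5%). Region 3 (chr12:110765579-110765886) was open in 33 cells, or 7.95% (5.54% to 10.99%). The most widely open was region 4 (chr12:110781133-110781911), with 56 cells or 13.5% (10.4% to 17.2%). Region 5 (chr12:110798194-110798777) followed with 45 cells or 10.8% (8.02% to 14.2%). The median over the 6 regions was 8.80%, against 14.5% over all regions, with quartiles of 9.88% and 23.6%. The intervals of neighbours in this order overlap, so the order of the 6 is not established. Regions in the table have at least 31 open cells, and 4 of the 6 lie within 7 cells of that minimum. Regions open in fewer cells were not analysed here, and the single row in the H19-Igf2 window does not show that the rest of it was closed.

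**Figure D1:**
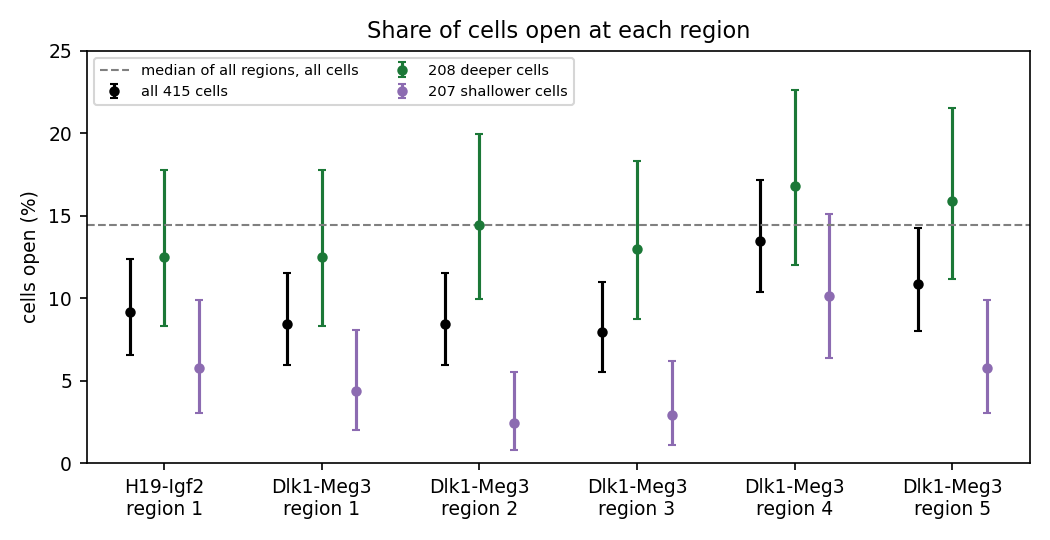
Share of cells open (%) at each of the 6 regions, in all cells and in the deeper and shallower cells on either side of the median depth; bars are exact 95% intervals and the dashed line is the median of all regions in all cells (14.5%). All 6 shares over all cells lie below the line. Every region was open more often in the deeper cells, which is likely for any region since depth is a cell's number of open regions.

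Compared with the mean over its chromosome, the Dlk1-Meg3 window was dense in regions and the H19-Igf2 window was not. Other windows of the same sizes were not counted, so how unusual either density is was not tested. The 5 Dlk1-Meg3 regions within 160 kb correspond to 31.3 regions per Mb, against 7.95 per Mb over chromosome 12. The H19-Igf2 window, with 1 region in 120 kb, had 8.33 per Mb, against 10.1 per Mb over chromosome 7. Regions 1 and 2 of the Dlk1-Meg3 window lay 2.90 kb apart, followed by a gap of 73.6 kb to region 3, then 15.2 kb to region 4 and 16.3 kb to region 5. The nearest regions outside that window lay 55.3 kb before region 1, open in 7.95% of cells, and 45.8 kb after region 5, open in 13.7%. Around the H19-Igf2 region the nearest lay 76.9 kb before and 286.1 kb after it, open in 10.8% and 12.3% of cells. The 6 regions had a median width of 672.5 bp, against 762 bp over all regions, with region 3 the narrowest and region 4, at 778 bp, the widest.

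Signal in an open cell was mostly 1 fragment or part of one. Values in the table appear to be aligned bases, and the commonest value was read as 1 fragment. In the H19-Igf2 region, 5 of the 38 open cells held more than 1 fragment, 9 held exactly 1 and 24 held less, and no cell reached 2. Region 4 of the Dlk1-Meg3 window had 9 cells above 1 fragment, 21 at 1 and 26 below, with a highest value of 3.72. Region 5 had 11 cells above 1 fragment, 11 at 1 and 23 below, with a highest value of 3.86. Over the 6 regions, 8.57% to 24.4% of the open cells held more than 1 fragment, against a median of 24.2% over all regions. Values below 1 fragment made up 45.7% to 68.6% of the open values in these regions, against 32.9% of all open values in the table. Such values would arise where a read crosses a region's edge, which the table does not show. The smallest open value in these regions was 4 bases, in Dlk1-Meg3 region 3, so an open call can rest on a small overlap.

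Depth bears on these shares directly, since it is counted as the number of open regions in a cell. A median cell had 3928 open regions, with a range of 756 to 12267. Among the deeper cells, those with at least that number, the H19-Igf2 region was open in 12.5% (8.33% to 17.8%), against 5.80% (3.03% to 9.91%) of the shallower cells. Region 2 of the Dlk1-Meg3 window was open in 14.4% of the deeper cells (9.95% to 19.9%) and 2.42% of the shallower (0.789% to 5.55%). For region 4 these shares were 16.8% and 10.1%, and their intervals overlap. Many regions without signal in a shallow cell may therefore not have been sampled, and the comparisons that follow use the number of open cells expected at each cell's depth. That number comes from a fit to the whole table, in which each region and each cell has a rate that matches its total.

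The 5 Dlk1-Meg3 regions opened in the same cells about as often as depth alone gives. At least 1 of them was open in 37.8% of cells (33.1% to 42.7%), which is 0.998 times the number expected if the regions opened independently at each depth. The fit matches each region's total in these same cells, so the mean number open per cell was fixed and only its spread could differ. At least 2 were open in 39 cells, against 38.9 expected, a ratio of 1.003 (0.713 to 1.37). Exactly 2 were open in 32 cells, 3 in 6 cells and 4 in 1 cell, against 31.95, 6.08 and 0.785 expected, and no cell had all 5 open.

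**Figure D2:**
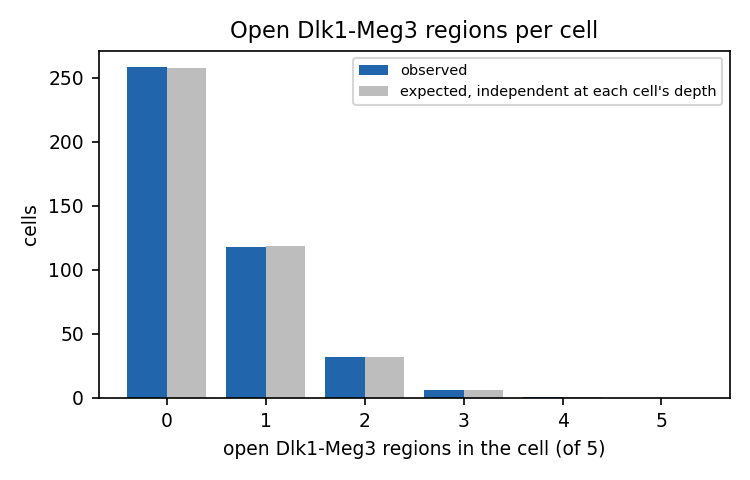
Number of cells (vertical axis) by the number of open Dlk1-Meg3 regions in the cell (horizontal axis); blue bars are the observed cells and grey bars the number expected if the 5 regions opened independently at each cell's depth. The bars match closely at every number, from 62.2% of the cells with none open to 1 cell with 4.

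Pair by pair, the counts within the Dlk1-Meg3 window were small and none left the range of counting error. Summed over its 10 pairs, both regions were open 56 times, against 55.4 expected, a ratio of 1.01. This sum follows from the numbers of open regions per cell given above and is no separate result. Ratios of single pairs ran from 0.598, for regions 3 and 5, to 1.88, for regions 2 and 5, which were both open in 10 cells against 5.32 expected (interval of the ratio 0.902 to 3.46). The lower bound exceeded 1 in 0 of the 10 pairs, and over all pairs of regions under 200 kb apart in the table it did so in 2.14%. Those pairs were not matched for how widely their regions open, and all members lie below the median share. An excess is harder to see in such pairs, so the rates are not directly comparable. The closest regions, 1 and 2, were both open in 5 cells against 4.16 expected. Regions 4 and 5 were both open in 6 cells against 8.40 expected, a ratio of 0.715 (0.262 to 1.56). No pair reached 10 expected cells, the number set for describing single pairs in detail, so values of single pairs say little.

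Between the imprinted domains, open cells coincided less often than depth gives, but within counting error. The H19-Igf2 region and at least 1 Dlk1-Meg3 region were both open in 12 cells, against 18.6 expected, a ratio of 0.644 with an interval of 0.333 to 1.12. A further 26 cells were open only at the H19-Igf2 region, 34.9% of all cells only in the Dlk1-Meg3 window and 55.9% in neither. By region, the 38 cells open at H19-Igf2 included 5, 1, 6, 2 and 2 cells open at Dlk1-Meg3 regions 1 to 5, against 4.51, 4.51, 4.26, 7.12 and 5.76 expected. The fewest relative to expectation were at regions 2, 4 and 5, and the interval of every one of these 5 ratios contains 1. The lower bound exceeded 1 in 0 of these pairs, against 0.663% of all pairs of a chromosome 7 and a chromosome 12 region. That share concerns excess, over pairs not matched for how widely their regions open, and the share of pairs with an upper bound below 1 was not computed. Observed cells exceeded expected cells in 2 of the 5 pairs, against 47.3% of all such pairs, whose median ratio was 0.988. Summed over the 5 pairs, both regions were open 16 times against 26.2 expected, a ratio of 0.612. Its interval, 0.350 to 0.993, treats the pairs as independent, which they are not, since all 5 share the same 38 cells.

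**Figure D3:**
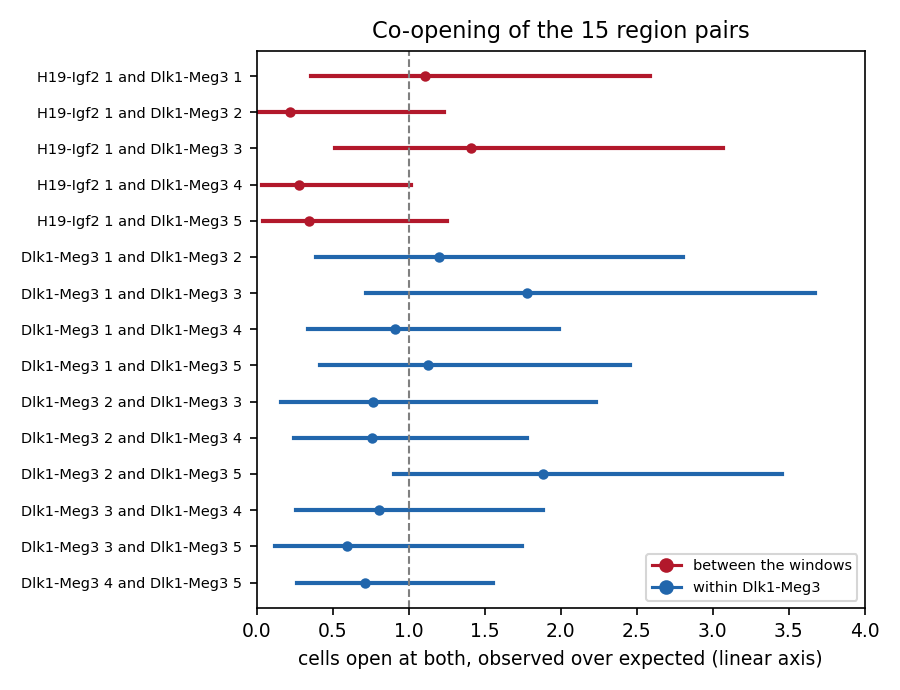
Cells open at both regions of a pair, observed over expected at the cells' depth (linear axis), for the 5 pairs between the windows (red) and the 10 pairs within the Dlk1-Meg3 window (blue); lines are exact 95% counting intervals and the dashed line marks 1. Ratios run from 0.222 to 1.88 and all 15 intervals cross the dashed line.

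Cells were divided by accessibility into 3 clusters, a number that was set rather than found. Dlk1-Meg3 regions 4 and 5 had opposite orders of observed share in clusters 2 and 3. The rule given below called 3 of the 6 members in some cluster, against 27.3% of the 2448 regions on chromosomes 7 and 12. Cells were clustered on the autosomes other than 7 and 12, so that no member took part in defining the groups. Cluster 1 held 46.6% of the clustered cells, cluster 2 held 27.3% and cluster 3 held 26.1%, with medians of 3628, 4778 and 3669.5 open regions. Clusters keep numbers, because the table names no genes from which a cell type could be read. The depth-scaled share is the number of open cells over the number expected, and its ratio sets a cluster against the remaining cells. A call, higher or lower, required a ratio of at least 2-fold and observed shares whose exact intervals stayed apart. The rule takes in counting error and no replicates. Its intervals are those of the observed shares, which are not corrected for depth, and cluster 2 had the deepest cells, so the number of open cells over the number expected is given with its own interval for each call.

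Region 4 was open most often in cluster 3 and least often in cluster 2. It was open in 26 cells of cluster 3 (24.1%, interval 16.4% to 33.3%), against 30 other cells (9.80%, 6.71% to 13.7%), a depth-scaled ratio of 2.68. Its open cells were 1.90 times the expected number in cluster 3 (1.24 to 2.79), against 0.709 times in the other cells (0.478 to 1.01). In cluster 2 it was open in 5 cells (4.42%, 1.45% to 10.02%), against 51 other cells (16.9%, 12.9% to 21.7%), a ratio of 0.194. These were 0.266 times the expected number (0.0864 to 0.621), against 1.37 times in the other cells (1.02 to 1.80). Cluster 1 lay between them with 25 cells (12.95%, 8.56% to 18.5%).

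Region 5, 16.3 kb away, had the reverse order. It was open in 2 cells of cluster 3 (1.85%, 0.225% to 6.53%), against 43 other cells (14.1%, 10.4% to 18.5%), a depth-scaled ratio of 0.145. Its open cells were 0.183 times the expected number in cluster 3 (0.0221 to 0.660), against 1.26 times in the other cells (0.914 to 1.70). In cluster 2 it was open in 23 cells (20.4%, 13.4% to 28.96%), against 22 other cells (7.31%, 4.64% to 10.9%), a ratio of 2.05, just past the limit of 2. The rule would not be met on depth-scaled intervals, since its open cells were 1.52 times the expected number in cluster 2 (0.961 to 2.28), against 0.738 times in the other cells (0.462 to 1.12), and these overlap. Cluster 1 was again between them, with 20 cells (10.4%). After each cell was thinned to 1500 open regions it was not, with shares of 5.45% in cluster 1 and 5.41% in cluster 2. The intervals of the observed shares of clusters 2 and 3 do not overlap at either region. These shares are not corrected for depth, and how many other regions differ in this way was not computed.

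Region 2, near the other end of the window, met the rule in cluster 2 by a narrow margin. It was open in 18 cells there (15.9%, 9.72% to 24.002%), against 17 other cells (5.65%, 3.32% to 8.89%), a depth-scaled ratio of 2.07, just past the limit of 2. Its open cells were 1.52 times the expected number there (0.9004 to 2.40), against 0.735 times in the other cells (0.428 to 1.18), and these intervals overlap. Clusters 1 and 3 had shares of 5.70% and 5.56%. After each cell was thinned to 1500 open regions, the ratio was 1.22, on 3 open cells in cluster 2.

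The other 3 regions passed the rule in no cluster. The H19-Igf2 region was open in 20 cells of cluster 1 (10.4%, 6.45% to 15.6%), 9 of cluster 2 (7.96%, 3.71% to 14.6%) and 9 of cluster 3 (8.33%, 3.88% to 15.2%), with depth-scaled ratios of 1.54, 0.607 and 0.968 against the other cells. Region 1 was open in 7.77%, 12.4% and 5.56% of clusters 1, 2 and 3, with ratios of 1.04, 1.30 and 0.646. Region 3 was open in 7.77%, 6.19% and 10.2%, with ratios of 1.16, 0.525 and 1.56. Each of these ratios is under 2-fold, and the intervals of the shares overlap, which does not show that the clusters are alike at these regions.

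Of the 6 members, 3 were called in some cluster, against 27.3% of the 2448 regions on chromosomes 7 and 12. With 6 members this share says little. By direction, 2 members were higher in cluster 2 and 1 in cluster 3, against 8.54% and 7.68% of the regions on these chromosomes. In each of clusters 2 and 3, 1 member was lower, against 1.18% and 14.2%, and no member was called in cluster 1, where 2.78% of the regions were higher and 8.54% lower. In cells thinned to 1500 open regions each, where the most frequent member was open in 12 cells of a cluster, the rule was met by no member. All 5 differences kept their direction, but in values drawn from the same cells, which is no repeat of the calls. Cluster 2 was then no longer highest at region 5, with 5.41% of its cells open against 5.45% in cluster 1. With intervals of observed over expected open cells in place of those of the shares, an alternative added after seeing the data, 2 of the 6 members were called in some cluster, against 24.2% of the regions on these chromosomes. The calls kept were region 4 higher in cluster 3, against 8.01% of these regions, region 4 lower in cluster 2, against 3.23%, and region 5 lower in cluster 3, against 10%.

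**Figure D4:**
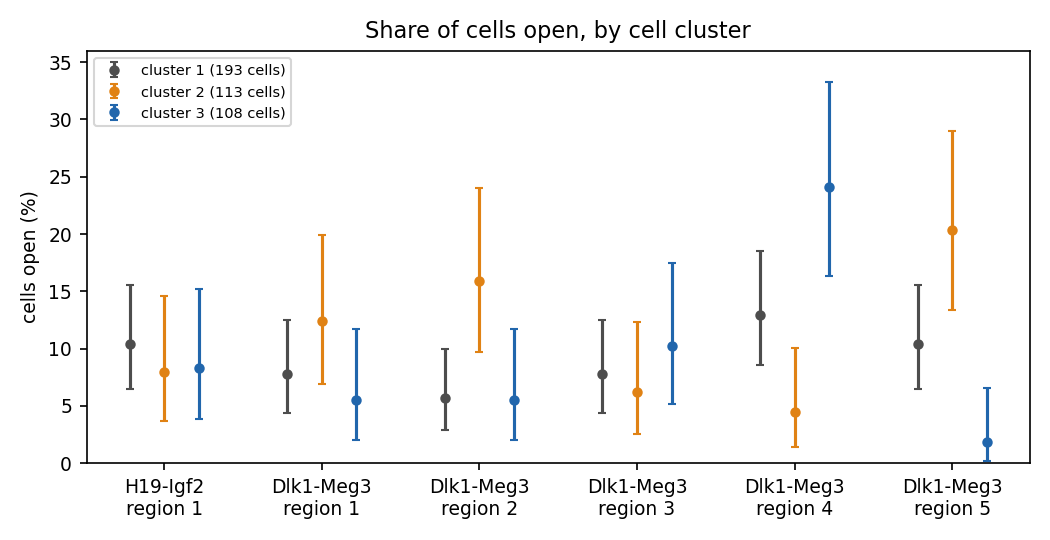
Share of cells open (%) at each of the 6 regions in cell clusters 1, 2 and 3, which were made without chromosomes 7 and 12; bars are exact 95% intervals. At Dlk1-Meg3 region 4 cluster 3 is highest (24.1%) and cluster 2 lowest (4.42%), and at region 5 cluster 2 is highest (20.4%) and cluster 3 lowest (1.85%).

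Summed over the whole Dlk1-Meg3 window, accessibility was close to the expected level in every cluster. The 5 Dlk1-Meg3 regions gave 86 open values in cluster 1, 67 in cluster 2 and 51 in cluster 3, against 85.5, 68.8 and 49.6 expected at the cells' depth. The ratios were 1.01 (0.805 to 1.24), 0.973 (0.754 to 1.24) and 1.03 (0.766 to 1.35). At least 1 of the regions was open in 35.8%, 42.5% and 37.04% of the cells of clusters 1, 2 and 3. These shares are not corrected for depth, and the open cells were 1.02, 0.953 and 1.01 times the number expected. The differences at regions 2, 4 and 5 are not visible in these sums.

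The cells' title numbers, which the labels do not explain, were split into 4 consecutive sets. The clusters were spread unevenly over them, with 36, 40, 59 and 58 cells of cluster 1, 29, 23, 30 and 31 of cluster 2, and 39, 40, 15 and 14 of cluster 3 in sets 1 to 4. The sets are slices of the cells from which the regions were called, so their values describe where the calls come from and are no repeat of them. On the depth-scaled ratio, region 4 was higher in cluster 3 and lower in cluster 2 in 4 of 4 sets, and region 5 was lower in cluster 3 in 4 of 4. In sets 1 to 4, region 4 was open in 2, 1, 1 and 1 cells of cluster 2, and region 5 in 1, 0, 0 and 1 cells of cluster 3. The lower directions in single sets therefore rest on very few cells. Region 5 in cluster 2 had ratios of 0.556, 6.07, 3.44 and 1.07 in sets 1 to 4, and 12 of its 23 open cells there came from set 3. Region 2 in cluster 2 had ratios of 0.771, 2.42, 8.57 and 1.85. Within a single set the rule was met only by region 5 in cluster 2 in the third set (12 of 30 cells) and by region 4 in cluster 3 in the last set (5 of 14 cells).

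With each set left out in turn, also an alternative added after seeing the data, region 5 stayed lower in cluster 3 every time. Region 4 stayed past 2-fold in both clusters, but its lower call in cluster 2 was lost without the third set (ratio 0.231) and its higher call in cluster 3 without the last (ratio 2.17), where the intervals overlapped. The higher call of region 5 in cluster 2 was lost without the second set (ratio 1.65) and without the third (1.42). That of region 2 was lost without the second (1.98), the third (1.66) and the last (2.17).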

How the data were processed

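The authors deposited 1 table of signal, whole numbers of 0 or more for 23180 regions in 415 cells. Per the submitters' processing notes, MACS2, a peak caller, and build mm9 were used; no source used here names the aligner, the duplicate handling or the counting tool. From the values, signal was read as aligned bases, with the commonest value, 148, as 1 fragment. Any value above 0 counted as open. Cells held 791 to 25069 fragments.

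The expected probability of being open was 1 − exp(−region rate × cell rate), fitted to all row and column totals. Clustering used 414 cells with at least 1000 fragments, term frequency-inverse document frequency weights (scaled by 10000, log-transformed), singular value components 2 to 10 and k-means with 3 clusters and 50 starts. Intervals were Clopper-Pearson for shares and exact Poisson for joint counts; they cover counting error only. Counts of reads had been assumed in the design; the 1000 minimum was applied to fragments. The scripts were tested on simulated data. Tools were Python 3.11.15, numpy 2.4.6, scipy 1.17.1 and scikit-learn 1.9.0; promoter sequences are from RefSeq, GRCm38.p6.

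The members, windows and comparisons were chosen with earlier results of these data known. Regions described in full were the 3 most widely open of each window, those called in a cluster, and the 3 most alike regions on other chromosomes. Marker genes and other imprinted genes had been listed, need an mm9 annotation, and were not used here.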

Additional observations from a re-analysis of the deposited data

How the results depend on the processing

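The share of cells open, a median of 8.80% over the 6 regions, was 1.33% with an open call set at more than 1 fragment and 13.7% in the deeper cells, and did not change when most of a region had to lie in its window. With more than 1 fragment required, cells with at least 2 open Dlk1-Meg3 regions were 0.524 times the expected number, pairs within that window 0.473 times and pairs between the windows 0 times, on 1, 1 and 0 observed cells. Co-opening stayed within the interval of the main value in thinned cells, in deeper cells and with expected numbers fitted within clusters, at ratios of 0.996 to 1.08 within the Dlk1-Meg3 window and 0.599 to 0.690 between the windows, where the main values were 1.01 and 0.612. The thinned ratios rested on 6 joint openings within the window (interval 0.389 to 2.31) and 2 between the windows (0.0726 to 2.16). Such counts are too small to show that co-opening is stable. Calls of a region in a cluster numbered 5, as they did on observed shares and with clusters from the autosomes of opposite parity. With 2 clusters there were 4, regions 4 and 5 each counted in both clusters, and region 2 was not called. With the first component kept there were 4, of which region 3 lower in the cluster second in size (ratio 0.309) was an added call; region 4 was called lower and region 5 higher in no cluster, and these clusters matched the main ones with an adjusted Rand index of 0.358. That index was 0.508 with 2 clusters and 0.576 with 4 clusters. There were 2 calls with 4 clusters, 0, 0, 1 and 1 within the 4 sets of title numbers, and 5, 3, 2 and 3 with each set left out in turn. With intervals of observed over expected open cells there were 3. In the deeper cells alone, chosen after seeing the data, 2 calls remained, region 4 lower and region 5 higher in cluster 2, while the ratios were 2.09, 0.152 and 2.18 for regions 2, 4 and 5 in cluster 2 and 2.23 and 0.245 for regions 4 and 5 in cluster 3, all still past 2-fold, with wider intervals from fewer cells. With 1500 open regions kept at random in each cell and 33 cells too shallow for this, there were 0 calls. Region 4 was then open in 12 cells of cluster 3 and 3 of cluster 2, with ratios of 2.40 and 0.333. Region 5 was open in 0 cells of cluster 3, which allows a share of up to 2.83% by the limit of 3 counts and 3.42% by the exact interval, and in 6 of cluster 2, a ratio of 1.63. In cluster 1 it was open in 9 cells, a ratio of 1.97, so cluster 2 was not the highest. No paired analysis was possible because the series holds 1 group.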

Other observations

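Along the title numbers, the H19-Igf2 region was open in 12, 11 and 12 cells in the first 3 sets and in 3 cells in the last, or 11.5%, 10.6%, 11.5% and 2.91% of each, with median depths of 3679, 3869, 4189.5 and 3785 open regions. The interval of the last set, 0.605% to 8.28%, overlaps those of the others, but these shares are not corrected for depth. Open cells were 1.33, 1.16, 1.22 and 0.314 times the number expected at depth in sets 1 to 4. No interval was computed for these ratios, and the difference was not tested. Dlk1-Meg3 region 3 was open in 13, 5, 5 and 10 cells of these sets. Summed over the 5 Dlk1-Meg3 regions, open values were 0.901 to 1.05 times the number expected.

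Regions on other chromosomes whose depth-corrected values were most like those of the windows over all cells had only weak correlations. For the H19-Igf2 region they lay on chromosome 5 from 123582422 to 123582844 (r = 0.225), chromosome 4 from 133573316 to 133573687 (0.222) and chromosome 17 from 4540808 to 4541296 (0.220). For the mean of the Dlk1-Meg3 regions they lay on chromosome 4 from 132640830 to 132641637 (0.209), chromosome 13 from 72096922 to 72097122 (0.204) and chromosome 1 from 140752922 to 140753543 (0.197). Medians over all regions on other chromosomes were -0.0056 and -0.0022. These are the highest values of the whole table outside the window's own chromosome, in sparse data from the same cells, and they are given as a description.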
